A study of Rattus norvegicus with 12 samples.

Results

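Guidance molecules are the ligands and receptors first described for steering growing axons, and the group analysed here comprises the Eph receptors, their ephrin ligands, the semaphorins with their plexin and neuropilin receptors, the Slits with their Robo receptors, and the netrins with their Unc5 receptors. Members were the probe sets whose single gene symbol in the platform annotation named one of these families. There were 94 such probe sets for 55 genes, of 31042 probe sets that were not manufacturer's controls. RNA was measured on 12 one-colour Affymetrix rat arrays, each loaded with 1 pool of 2 tissue samples from male Sprague-Dawley rats of 225 to 275 g, for which the labels name no engineered allele. The 4 groups of 3 pools were left atrial appendage after sham surgery, left atrial appendage after an aorto-caval shunt, left ventricular free wall after sham surgery and left ventricular free wall after the shunt, all taken 28 days after the operation. The shunt is a surgical opening between the aorta and the vena cava that returns arterial blood to the heart and so loads all chambers with extra volume. The design describes the pools as biological replicates, so p-values here measure the spread between pools of whole tissue that holds many cell types.

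Eph receptors are receptor tyrosine kinases that bind ephrins on the surface of a neighbouring cell, and both partners can signal into their own cell. Semaphorins are secreted or membrane-bound proteins that act through plexins. The secreted class 3 semaphorins mostly need neuropilins as co-receptors, which they share with vascular endothelial growth factors (VEGF). Slits bind Robo receptors, and netrins attract through Dcc-type receptors or repel through Unc5 receptors. In the heart these families are known for roles in outflow tract and valve formation, vessel patterning and the distribution of autonomic nerves.

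All values below are deposited log2 values of RMA (robust multi-array average, a summary of each probe set's probes), and all differences are log2 differences with the standard error (SE) of a limma model of the 4 groups. Testing was limited to probe sets whose average across all arrays reached the 40th percentile, log2 4.01. This left 54 member probe sets of 36 genes, and 40 member probe sets were not tested. Of the 12 Eph receptors 7 had a tested probe set, of 5 ephrins 4, of 17 semaphorins 13, of 8 plexins 7, of 2 neuropilins both, of 3 Slits 1, of 3 Robo receptors none, of 2 netrins 1 and of 3 Unc5 receptors 1. Each gene is given by its tested probe set of highest mean, and a called difference is one with a Benjamini-Hochberg adjusted p under 0.05 over all 18625 probe sets tested. Probe sets hybridise with different strength, so levels are compared between groups and not between genes.

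The myocyte markers followed the labelled chambers. The summed level of 5 atrial myocyte markers lay between 15.62 and 15.68 in the atrial sham pools and between 10.08 and 10.48 in the ventricular sham pools, and that of the ventricular markers lay between 8.29 and 8.87 in the former and between 14.56 and 14.60 in the latter. Here and below, a summed level covers all markers of a list on the array, also those below the filter. Array medians lay between 4.54 and 4.59, and no 2 arrays held identical values. The arrays of a group correlated at 0.983 to 0.996 over the tested probe sets, and arrays of different chambers at 0.935 to 0.950. Atrial shunt pool 3 lay furthest from its group, with a root mean square deviation of 0.2 against 0.0913 to 0.163 on the other arrays, and it also had the highest difference between the 3′ and 5′ hexokinase control probe sets, 1.44 against 0.80 to 1.23. With 3 arrays per group, their number limits the precision of every comparison.

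The first question was which guidance molecules differed between the chambers in sham-operated rats. Of the 36 tested genes, 22 differed between left atrium and left ventricle, 7 higher and 15 lower in the atrium. This is 61.1% of the tested member genes, beside 50.2% of all 10606 tested genes, so the count is to be read against a large chamber difference of the whole transcriptome. By direction, 19.4% of the member genes were higher in the atrium beside 27.6% of all genes, and 41.7% were lower beside 22.6%. By probe set, 33 of 54 were called, beside 47.2% of all probe sets. The pools of the chambers did not overlap for 27 of the 36 genes (75%), beside 63.8% of all genes. The median difference of the member genes was -0.18, with a range from -1.84 to 5.26, beside a median of 0.02 over all genes. Low probe sets tended to read lower in the atrium across the array: of all probe sets between the filter and a log2 value of 5, 63% were lower in atrium, against 45% of those at 7 and above.

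The same question was asked in the shunt-operated rats, whose arrays are different ones. There 21 of the 36 genes differed between the chambers (58.3%, beside 45.6% of all genes), 6 higher (16.7%, beside 24.8%) and 15 lower in the atrium (41.7%, beside 20.9%), and 31 of the 54 probe sets (beside 41.9%). The pools of the chambers did not overlap for 22 genes (61.1%, beside 53.4%). The calls were common to both operations for 17 genes, all in the same direction, 6 higher and 11 lower in the atrium. These 17 are 47.2% of the member genes, beside 38.5% of all genes called in both operations in the same direction. In all, 34 of the 36 genes had a difference of the same sign in both operations (94.4%, beside 86.9% of all genes). The plot of chamber differences shows these pairs gene by gene.

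**Figure D1:**
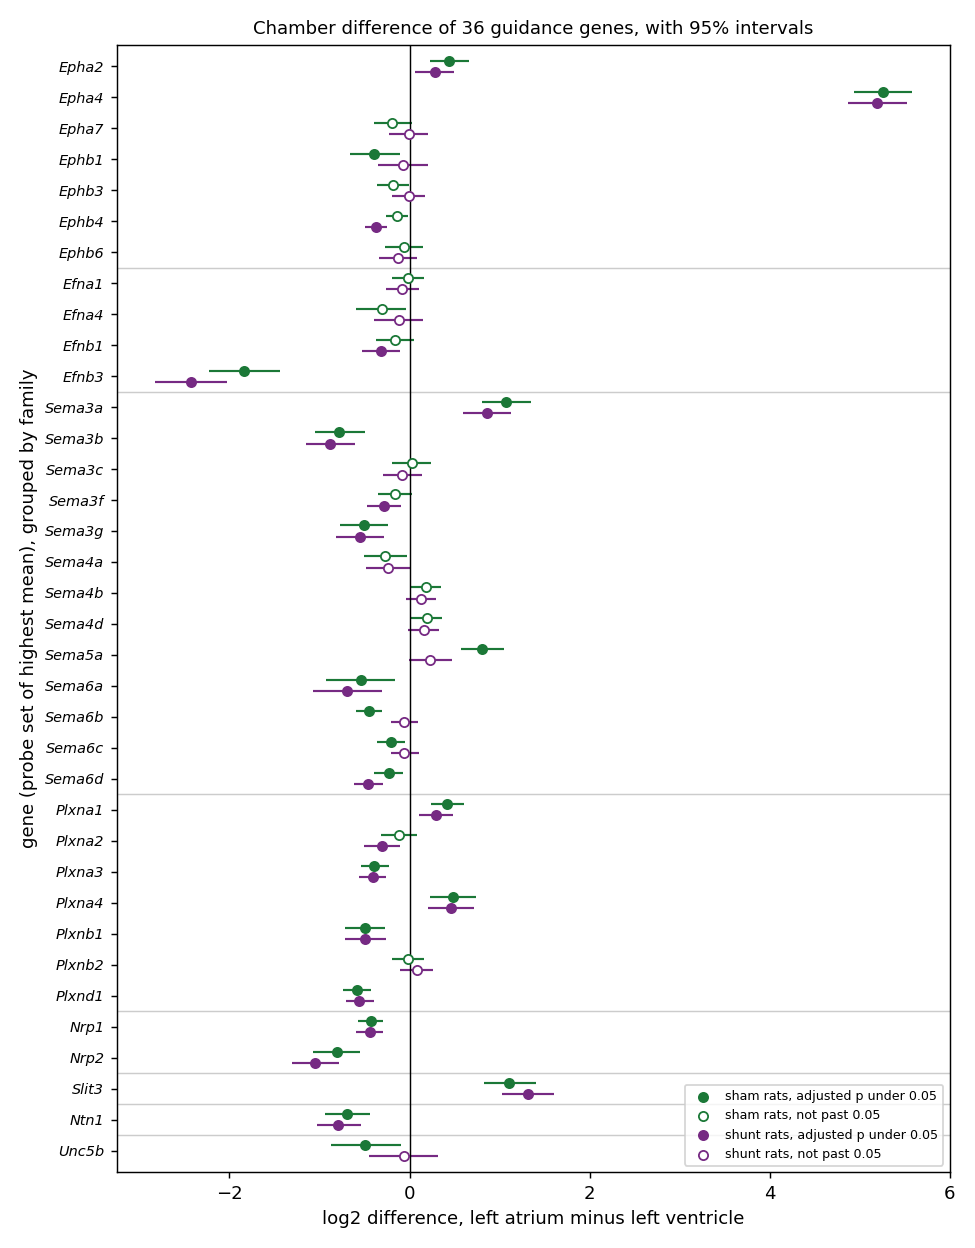
Log2 difference between left atrium and left ventricle (x axis, atrium minus ventricle) of the 36 tested guidance genes (y axis, grouped by family) in sham rats (green) and shunt rats (purple). Points are limma estimates, lines their 95% confidence intervals, and filled points passed an adjusted p of 0.05. Epha4 stands far to the right at 5.26 and 5.19 and Efnb3 furthest to the left at -1.84 and -2.43, while neuropilins, Plxnd1 and Ntn1 lie to the left in both operations.

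Promoter windows are shown for 4 members that differed between the chambers in both operations, a pair in each direction. They had the largest sham differences in their direction among the members considered, whose window ended at the annotated start of the gene. Members on a chromosome left out of this choice were not considered. Sequences are from RefSeq on GRCr8, where 41 of the 55 member genes were matched, and each is the 250 bases before the start, read 5′ to 3′. Capitals mark, on either strand, matches to the letters AGATAA bound by GATA factors, to the nuclear receptor half-site, whose letters are AGGTCA, or to the GC box, which reads GGGCGG.
Slit3: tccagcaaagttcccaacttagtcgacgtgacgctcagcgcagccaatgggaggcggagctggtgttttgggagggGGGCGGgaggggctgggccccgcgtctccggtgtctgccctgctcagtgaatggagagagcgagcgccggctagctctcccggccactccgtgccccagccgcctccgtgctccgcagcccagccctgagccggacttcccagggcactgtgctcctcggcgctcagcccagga
Epha2: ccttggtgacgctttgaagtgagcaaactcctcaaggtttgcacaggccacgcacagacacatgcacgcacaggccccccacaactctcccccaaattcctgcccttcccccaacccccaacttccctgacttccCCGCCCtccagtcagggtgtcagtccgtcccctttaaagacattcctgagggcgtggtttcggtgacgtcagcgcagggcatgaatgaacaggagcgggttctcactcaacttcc
Sema3g: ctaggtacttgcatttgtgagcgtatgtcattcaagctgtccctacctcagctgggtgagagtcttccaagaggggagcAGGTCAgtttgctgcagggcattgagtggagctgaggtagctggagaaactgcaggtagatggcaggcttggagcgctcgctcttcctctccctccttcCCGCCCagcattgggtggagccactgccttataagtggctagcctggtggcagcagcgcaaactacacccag
Nrp1: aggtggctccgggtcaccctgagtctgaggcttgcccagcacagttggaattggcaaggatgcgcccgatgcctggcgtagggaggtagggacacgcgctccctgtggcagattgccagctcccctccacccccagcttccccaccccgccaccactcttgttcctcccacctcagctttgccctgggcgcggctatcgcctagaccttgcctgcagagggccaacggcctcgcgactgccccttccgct
Slit3 and Epha2 were higher in the atrium, and Sema3g and Nrp1 lower. The windows lie at chr10:20075679-20075928 for Slit3, chr5:158888379-158888628 for Epha2, chr16:6419775-6420024 for Sema3g and chr19:73256307-73256556 for Nrp1, all on the plus strand. A GC box was found in the windows of Slit3, Epha2 and Sema3g, a half-site in that of Sema3g, and no match to the GATA letters in any of them. Over the 42 windows of member genes, 57.1% held a GC box, 4.76% a half-site and 9.52% the GATA letters, beside 30.5%, 14.1% and 10.3% of 33465 promoter windows of the same length. A match describes letters in a window and shows no binding.

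Among the Eph receptors, Epha4 had by far the largest chamber difference of any member. EphA4 is a receptor that binds ephrins of both the A and the B class. Epha4 (1390638_at) read 10.37, 10.06 and 10.22 in the atrial sham pools and 5.23, 4.95 and 4.70 in the ventricular sham pools. After the shunt it read 10.45, 10.43 and 10.24 in atrium and 4.94, 5.43 and 5.17 in ventricle. All 6 atrial pools were thus far above all 6 ventricular pools, and sham and shunt pools of a chamber overlapped. The difference was 5.26 ± 0.15 (SE, 3 pools per group) in sham rats, 38.3-fold (limma, adjusted p = 2.41e-10), and 5.19 ± 0.15 in shunt rats, 36.6-fold (adjusted p = 3.07e-10). In bulk tissue such a difference can reflect more cells of a type or more RNA per cell, and these cannot be told apart. The other 3 Epha4 probe sets were higher in the atrium too, by 2.10 to 4.89 in sham rats and by 2.38 to 5.17 in shunt rats, and every one was called in both operations.

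Epha3, a receptor that prefers A-class ephrins, ran the other way, at low levels. All 3 of its probe sets were below the filter, so the following comes from a limma fit of all 31042 probe sets without the filter. That fit called 15 of the 40 untested member probe sets in sham rats, beside 14.7% of all 12417 probe sets below the filter, and 8 in shunt rats, beside 8.98%. The brightest, 1385053_at, read 2.97, 2.94 and 2.97 in the atrial sham pools, 2.97, 3.11 and 3.07 in the atrial shunt pools, 4.11, 4.66 and 4.11 in the ventricular sham pools and 4.36, 3.97 and 4.61 in the ventricular shunt pools. No atrial pool reached a ventricular one. The difference was -1.34 ± 0.16 in sham rats (adjusted p = 3.61e-05) and -1.26 ± 0.16 in shunt rats (adjusted p = 6.14e-05). A second probe set gave -0.88 ± 0.10 and -0.91 ± 0.10 and the remaining one -0.29 ± 0.10 and -0.33 ± 0.10, all called. Of all probe sets below the filter, 72.4% were lower in the atrium in sham rats, with a median of -0.08, and after a further quantile normalization 55.3%, with a median of -0.02. The panels of single probe sets show both receptors side by side.

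**Figure D2:**
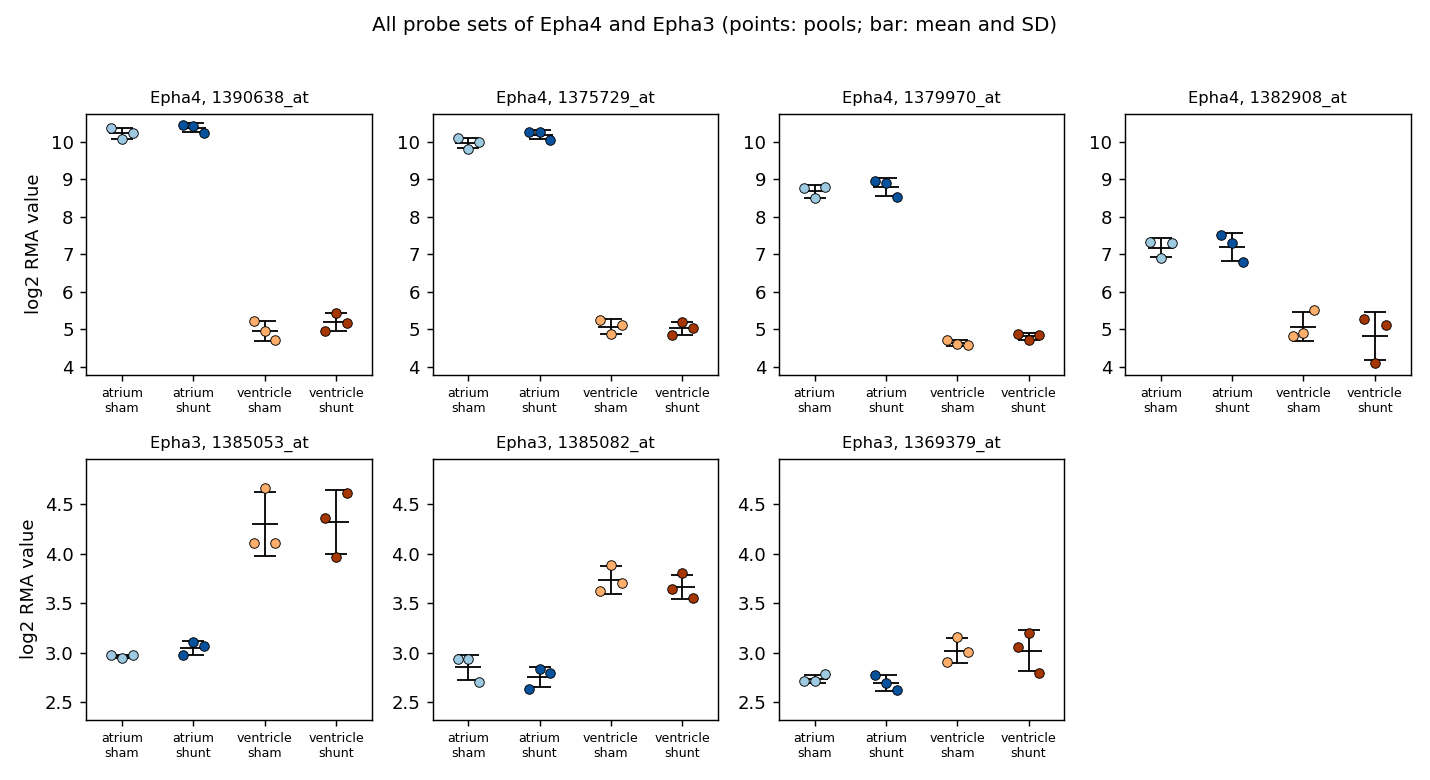
Log2 RMA values (y axis) of the 4 probe sets of Epha4 (upper row) and the 3 of Epha3 (lower row) in each pool (points) of the 4 groups (x axis), with the group mean and SD (bars) and 1 y scale per row. The atrial pools lie above the ventricular pools in every Epha4 panel and below them in every Epha3 panel.

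Epha2, an Eph receptor of epithelial and endothelial cells, was modestly higher in the atrium. It read 5.96, 5.79 and 5.83 in the atrial sham pools against 5.32, 5.32 and 5.61 in ventricle, and 5.79, 5.76 and 5.73 against 5.29, 5.56 and 5.59 after the shunt. The pools of the chambers did not overlap in either operation. The difference was 0.44 ± 0.10 in sham rats (adjusted p = 0.00328) and 0.28 ± 0.10 in shunt rats (adjusted p = 0.0417). The latter call was lost without any of atrial sham pools 2 and 3, the 3 atrial shunt pools or ventricular shunt pool 1, with differences of 0.18 to 0.33 over the 12 fits that left out 1 array and a highest adjusted p of 0.168. It was also lost without the filter (adjusted p = 0.0555), with a further quantile normalization (0.0874), with a trended and robust prior (0.0506) and with only the groups compared (0.0644).

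Ephb4, the receptor of venous endothelium, read 7.05, 7.05 and 7.01 in the atrial and 7.17, 7.16 and 7.19 in the ventricular sham pools, a difference of -0.14 ± 0.05 that missed the threshold (adjusted p = 0.0567). After the shunt it read 6.91, 6.91 and 6.84 against 7.25, 7.23 and 7.31, lower in the atrium by -0.37 ± 0.05 (adjusted p = 0.00018). The pools did not overlap in either operation, and the gap between the chambers was wider after the shunt, a difference of -0.24 ± 0.08 between the shunt effects that did not pass the test (adjusted p = 0.568). Ephb1, a receptor for B-class ephrins, was lower in the atrium in sham rats by -0.39 ± 0.13 (adjusted p = 0.027), with a mean over the 6 atrial pools of 3.97, below the filter. That call was lost without atrial sham pool 1 or 2 or ventricular sham pool 2 or 3 (highest adjusted p = 0.0948), and with a further quantile normalization (0.0739) or cyclic loess (0.0936). In shunt rats its difference was -0.07 ± 0.13. The remaining tested Eph receptors, Epha7, Ephb3 and Ephb6, were called in neither operation, with differences between -0.19 and -0.01.

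Of the ephrins, Efnb3 had the largest negative chamber difference of the tested members. Ephrin-B3 is a transmembrane ligand, best known at the spinal cord midline, where it repels axons that carry EphA4. Efnb3 (1383078_at) read 6.12, 6.84 and 6.52 in the atrial and 7.96, 8.59 and 8.43 in the ventricular sham pools. After the shunt it read 5.62, 5.72 and 5.80 in atrium and 8.28, 7.99 and 8.16 in ventricle. Every ventricular pool was above every atrial pool. The difference was -1.84 ± 0.18 in sham rats, 3.57-fold (adjusted p = 7.81e-06), and -2.43 ± 0.18 in shunt rats, 5.38-fold (adjusted p = 8.52e-07).

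Efnb1, another transmembrane ligand of EphB receptors, was lower in the atrium after the shunt, by -0.32 ± 0.10 (adjusted p = 0.0184), and gave -0.16 ± 0.10 in sham rats (adjusted p = 0.189). The shunt-rat call was lost without atrial shunt pool 1 or ventricular shunt pool 1 or 3 (highest adjusted p = 0.0793), or with only the groups compared (0.0703). Its other probe set, not called, gave -0.14 in sham and -0.21 in shunt rats. The membrane-anchored A-class ligands Efna1 and Efna4 were not called. Efna4 came nearest, at -0.31 ± 0.13 in sham rats (adjusted p = 0.0567).

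Among the secreted class 3 semaphorins, Sema3a and Sema3b differed in opposite directions. Sema3A repels sympathetic and sensory axons through neuropilin-1 and A-type plexins. Sema3a (1387723_at) read 4.83, 5.02 and 4.88 in the atrial and 3.85, 3.80 and 3.85 in the ventricular sham pools, and 4.61, 4.92 and 4.33 against 3.87, 3.78 and 3.63 after the shunt. Its atrial pools were all above its ventricular pools, whose values lay below the filter, so that it was tested only through its atrial level. The difference was 1.07 ± 0.12 in sham rats, 2.11-fold (adjusted p = 2.58e-05), and 0.86 ± 0.12 in shunt rats, 1.81-fold (adjusted p = 0.000155). Sema3b, a secreted ligand of neuropilins, read 3.88, 4.08 and 4.15 in the atrial and 4.67, 4.84 and 4.92 in the ventricular sham pools, and 3.98, 4.19 and 3.85 against 4.64, 5.04 and 4.99 after the shunt. It was lower in the atrium by -0.78 ± 0.12 (adjusted p = 0.000331) and by -0.88 ± 0.12 (adjusted p = 0.000138), with no overlap of the chambers.

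Sema3g, a class 3 semaphorin of endothelial cells, was also lower in the atrium in both operations. It read 5.67, 5.41 and 5.57 against 6.29, 6.04 and 5.85 in sham rats, a difference of -0.51 ± 0.12 (adjusted p = 0.00531), and 5.35, 5.52 and 5.30 against 5.85, 5.83 and 6.15 in shunt rats, a difference of -0.55 ± 0.12 (adjusted p = 0.00338). The pools of the chambers did not overlap. Sema3f, a ligand of neuropilin-2, was lower in shunt rats alone by the test, by -0.28 ± 0.09 (adjusted p = 0.022), a call lost without atrial shunt pool 2 or ventricular shunt pool 1 or 2 (highest adjusted p = 0.0947), or with its probe sets averaged (-0.05, adjusted p = 0.648). Its sham difference was -0.16 ± 0.09, and its other probe set, not called, gave 0.23 and 0.17. Sema3c, known for its part in outflow tract septation, did not differ beyond the spread, at 0.03 ± 0.10 (95% interval -0.19 to 0.24) in sham and -0.08 ± 0.10 in shunt rats.

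The membrane-bound semaphorins of class 6, which bind A-type plexins, were lower in the atrium in sham rats for all 4 measured members. Sema6a read 6.71, 6.18 and 6.39 against 7.23, 6.83 and 6.85, a difference of -0.54 ± 0.18 (adjusted p = 0.0235), and -0.69 ± 0.18 in shunt rats (adjusted p = 0.00764), and its other tested probe set gave -0.60 and -0.60, called in both. The sham call of the first was lost without atrial sham pool 2 or 3 or ventricular sham pool 1 (highest adjusted p = 0.0986). Sema6d, which acts through plexin-A1 in the developing heart, was lower by -0.23 ± 0.07 in sham rats (adjusted p = 0.024) and by -0.46 ± 0.07 in shunt rats (adjusted p = 0.000382). Its sham call was lost without atrial sham pool 2 or 3 or ventricular sham pool 1 or 2 (highest adjusted p = 0.0848). Sema6b read 4.29, 4.29 and 4.21 in the atrial and 4.76, 4.80 and 4.59 in the ventricular sham pools, but 4.51, 4.49 and 4.41 against 4.52, 4.53 and 4.52 after the shunt. It was lower in the atrium by -0.45 ± 0.07 in sham rats (adjusted p = 0.000181) and gave -0.06 ± 0.07 in shunt rats (adjusted p = 0.498). Sema6c gave -0.21 ± 0.07 in sham rats (adjusted p = 0.0292), lost without atrial sham pool 1 or 3 or ventricular sham pool 1 or 3 (highest adjusted p = 0.11) or with a trended and robust prior (0.0655), and -0.06 ± 0.07 in shunt rats.

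Sema5a, a transmembrane semaphorin with thrombospondin repeats, was higher in the atrium in sham rats. It read 5.59, 6.04 and 5.75 in the atrial and 4.93, 5.11 and 4.90 in the ventricular sham pools. After the shunt it read 5.18, 5.37 and 5.37 in atrium and 5.04, 5.19 and 5.0 in ventricle. The chambers were apart in sham rats and overlapped in shunt rats. The difference was 0.81 ± 0.11 in sham rats, 1.76-fold (adjusted p = 0.000102), and 0.23 ± 0.11 in shunt rats (adjusted p = 0.118). Of its probe sets below the filter, fitted without the filter, 1391556_at was higher in the atrium in both operations (0.25 ± 0.08 and 0.28 ± 0.08), while 1376539_at was lower in sham rats (-0.40 ± 0.10). The class 4 semaphorins Sema4a, Sema4b and Sema4d, membrane proteins also known from immune cells, were called in neither operation, with differences between -0.27 and 0.19.

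Of the plexins, which bind semaphorins and regulate small GTPases, Plxna4 and Plxna1 were higher in the atrium and Plxna3, Plxnb1 and Plxnd1 lower, each in both operations. Plxnd1, a receptor of endothelial cells that binds Sema3E without a neuropilin, read 7.72, 7.57 and 7.63 in the atrial and 8.20, 8.26 and 8.21 in the ventricular sham pools, and 7.92, 7.74 and 7.76 against 8.32, 8.32 and 8.46 after the shunt. No atrial pool reached a ventricular one. The difference was -0.58 ± 0.07 (1.5-fold, adjusted p = 4.18e-05) and -0.56 ± 0.07 (1.47-fold, adjusted p = 6e-05). Plxnb1, the receptor of Sema4D, was lower by -0.50 ± 0.10 (adjusted p = 0.00209) and -0.49 ± 0.10 (adjusted p = 0.00254), and all 3 of its probe sets were called in both operations. Plxna3, a receptor for Sema3F with neuropilin-2, was lower by -0.39 ± 0.07 (adjusted p = 0.00081) and -0.41 ± 0.07 (adjusted p = 0.000585), on both of its probe sets.

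Plxna4, a co-receptor for Sema3A, read 6.23, 6.31 and 6.08 in the atrial and 5.73, 5.67 and 5.76 in the ventricular sham pools, and 6.05, 6.37 and 5.86 against 5.61, 5.51 and 5.76 after the shunt. The atrial pools were the higher ones without overlap. It was higher by 0.48 ± 0.12 (adjusted p = 0.0051) and 0.46 ± 0.12 (adjusted p = 0.00721), and its other probe set by 0.92 and 0.84. The Plxna1 result depended on the probe set. The brightest was higher in the atrium by 0.42 ± 0.08 (adjusted p = 0.0015) and 0.29 ± 0.08 (adjusted p = 0.0147), a dimmer one gave -0.20 and -0.13 without a call, and the mean of its probe sets, 0.11 in sham and 0.08 in shunt rats, was not called in either operation. The shunt-rat call was also lost with a further quantile normalization (0.22, adjusted p = 0.0641). A further Plxna1 probe set lay below the filter. In sham rats its mean was 3.24 in atrium and 3.53 in ventricle, called lower in the fit without the filter. In shunt rats its means were 3.39 and 3.30, not called. Plxna2 was lower in shunt rats by -0.31 ± 0.09 (adjusted p = 0.0171), a call lost without atrial shunt pool 3 or ventricular shunt pool 2 (highest adjusted p = 0.0571), with array weights (0.057) or with only the groups compared (0.0557). In sham rats its 3 tested probe sets gave -0.32 to -0.12, where the brightest was not called but 1 of the dimmer ones was. Their shunt-rat differences ran from -0.31 to -0.14, with only the brightest called. Plxnb2 was called in neither operation.

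Both neuropilins were lower in the atrium in both operations. Nrp1, a co-receptor for Sema3A and for VEGF, read 9.45, 9.32 and 9.49 in the atrial and 9.81, 9.89 and 9.85 in the ventricular sham pools, and 9.57, 9.61 and 9.47 against 9.98, 9.99 and 10.01 after the shunt. Its chambers did not overlap. The difference was -0.43 ± 0.06 (adjusted p = 0.000216) and -0.44 ± 0.06 (adjusted p = 0.000171), and the other probe set gave -0.44 and -0.45. Nrp2, a co-receptor for Sema3F and for VEGF-C, read 5.41, 5.20 and 5.39 against 6.25, 6.22 and 5.96 in sham rats and 5.60, 5.27 and 5.66 against 6.61, 6.39 and 6.68 in shunt rats. Again all ventricular pools were above all atrial pools. The difference was -0.81 ± 0.12, 1.75-fold (adjusted p = 0.000189), and -1.05 ± 0.12, 2.07-fold (adjusted p = 2.66e-05). The other Nrp2 probe set was below the filter. Its means were 3.84 in atrium and 4.31 in ventricle in sham rats, called without the filter, and 3.81 and 3.91 in shunt rats, not called.

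Slit3 was the only Slit tested. Slit3, a secreted ligand of Robo receptors, read 5.96, 6.01 and 5.97 in the atrial and 4.69, 4.85 and 5.07 in the ventricular sham pools, and 6.16, 5.93 and 5.73 against 4.82, 4.62 and 4.41 after the shunt. It was higher in every atrial pool than in any ventricular pool. The difference was 1.11 ± 0.13 in sham rats, 2.16-fold (adjusted p = 3.07e-05), and 1.32 ± 0.13 in shunt rats, 2.49-fold (adjusted p = 8.27e-06). Slit1, Slit2 and the Robo receptors Robo1, Robo2 and Robo3 were all below the filter. Without the filter, Robo1 was lower in the atrium in sham rats (-0.32 ± 0.07, adjusted p = 0.00485) and 1 of the 3 Slit2 probe sets was lower in shunt rats (-0.35 ± 0.12, adjusted p = 0.0437).

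Netrin-1, a secreted laminin-like protein, was lower in the atrium. Ntn1 (1376128_at) read 7.06, 7.15 and 7.03 in the atrial and 7.67, 7.76 and 7.88 in the ventricular sham pools, and 6.72, 6.95 and 6.58 against 7.45, 7.76 and 7.39 after the shunt. All ventricular pools were above all atrial ones. The difference was -0.69 ± 0.11, 1.61-fold (adjusted p = 0.000377), and -0.79 ± 0.11, 1.72-fold (adjusted p = 0.000154), and 2 of its 3 probe sets were called in both operations, the dimmest being lower by -0.30 and -0.28 without a call. Unc5b, a netrin receptor of endothelial cells, read 6.23, 6.0 and 6.34 in the atrial and 6.68, 6.60 and 6.75 in the ventricular sham pools, and 7.04, 6.95 and 6.32 against 6.60, 7.09 and 6.81 after the shunt. Its chambers were apart in sham rats and overlapped in shunt rats. It was lower in the atrium by -0.49 ± 0.18 in sham rats (adjusted p = 0.039) and gave -0.06 ± 0.18 in shunt rats (adjusted p = 0.802). The sham call was lost without atrial sham pool 1 or 2, any ventricular sham pool or ventricular shunt pool 3 (highest adjusted p = 0.136). The other tested probe set of Unc5b gave -0.36 in sham and -0.10 in shunt rats, called in neither.

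**Figure D3:**
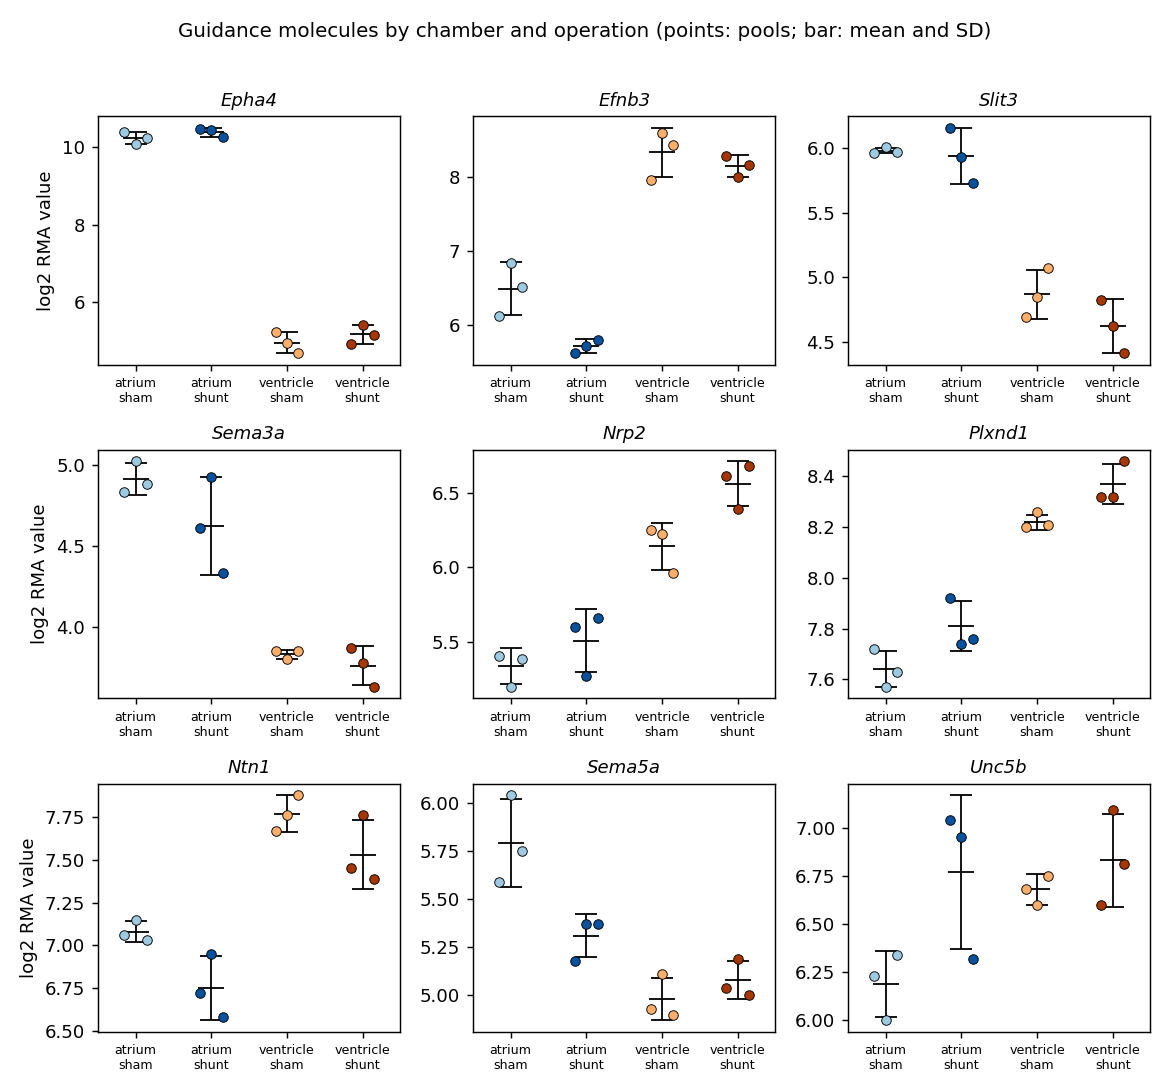
Log2 RMA values (y axis, 1 scale per panel) of 9 guidance genes in each pool (points) of the 4 groups of chamber and operation (x axis), with the group mean and SD (bars). Atrial pools lie above ventricular pools for Epha4, Slit3 and Sema3a and below them for Efnb3, Nrp2, Plxnd1 and Ntn1, while Sema5a and Unc5b separate the chambers in sham rats and overlap in shunt rats.

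Other cell types' markers moved with the chamber as well, and their part in these results was not tested. Their counts in sham rats stand beside 27.6% of all genes higher and 22.6% lower in the atrium. Of 11 endothelial markers tested, 6 were lower and 1, Vwf, was higher in the atrium in sham rats, and the summed endothelial level ran from 11.65 to 11.71 in atrium and from 11.81 to 11.83 in ventricle. After the shunt it ran from 11.62 to 11.82 and from 11.90 to 11.94. The markers were divided: in sham rats 5 of the 11 had a positive and 6 a negative difference. In shunt rats 2 were called higher and 6 lower, beside 24.8% and 20.9% of all genes. The median of these markers, -0.27 in sham and -0.39 in shunt rats, stands beside -0.43 and -0.44 for Nrp1, -0.81 and -1.05 for Nrp2 and -0.58 and -0.56 for Plxnd1. Of 5 lymphatic endothelial markers 2, Lyve1 and Pdpn, were higher in the atrium in sham rats and 1 was lower. Smooth muscle and pericyte markers were lower in the atrium for 6 of 9, with summed levels of 11.99 to 12.04 against 12.36 to 12.42. That sum leans on its brightest marker, Des, whose mean was 11.28 in the atrial and 11.71 in the ventricular sham pools. All 9 had a negative difference in sham rats, with a median of -0.29. Fibroblast markers were higher for 7 of 10 (13.83 to 13.88 against 13.24 to 13.32), and mesothelial and epicardial markers for 9 of 10 (10.11 to 10.33 against 7.92 to 8.01). Atrial myocyte markers were higher for 5 of 5. Median sham differences were 0.57 for the fibroblast, 2.29 for the mesothelial and epicardial and 6.72 for the atrial myocyte markers. Beside them stand 5.26 for Epha4, 1.11 for Slit3 and 1.07 for Sema3a. The remaining mesothelial and epicardial marker, Wt1, was lower in the atrium, by -0.60 in sham and -0.79 in shunt rats, and was called in both. Of the mesothelial and epicardial markers 4, Upk1b, Krt8, Krt19 and Gpm6a, passed the filter only through their atrial level. Of 7 nerve and Schwann cell markers tested 2 were higher in the atrium (28.6%, near the share of all genes), Mbp and Prph, while S100b, the neurofilament genes Nefl, Nefm and Nefh, Th, Chga and Uchl1 were below the filter. The summed level of all 14 on the array ran from 9.34 to 9.49 in atrium and from 8.67 to 8.72 in ventricle. That gap leans on Mbp, whose mean was 8.07 in the atrial and 5.07 in the ventricular sham pools. Of the 7 tested, 4 had a positive and 3 a negative difference, with a median of 0.14.

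The partners of these families were described with a list of 89 receptors, adaptors and effectors, of which 73 were tested. In sham rats 15 were higher (20.5%, beside 27.6% of all genes) and 18 lower in the atrium (24.7%, beside 22.6%). In shunt rats 19 were higher (26%, beside 24.8%) and 16 lower (21.9%, beside 20.9%), shares near those of all genes. Of 12 partners of netrin, Dcc and Unc5, 5 were higher (41.7%) and 1 lower (8.33%) in either operation. One of the tested 12, Flrt2, passed the filter only through its atrial level. Of 17 Eph and ephrin partners 2 were higher and 4 lower in sham rats, of 18 semaphorin and plexin partners 3 and 4, and of 9 Slit and Robo partners 2 and 3. The 3 higher partners of smallest p in sham rats were Maged1, an intracellular partner of Unc5 receptors, at 1.58 ± 0.06 (adjusted p = 4.02e-09), Rgmb, a repulsive guidance molecule that binds neogenin, at 1.39 ± 0.09 (adjusted p = 1.57e-07), and Dpysl2, which relays Sema3A signals to microtubules, at 0.95 ± 0.08 (adjusted p = 1.45e-06). In shunt rats Maged1 and Rgmb came first again, at 1.66 ± 0.06 and 1.06 ± 0.09, followed by Neo1, the neogenin receptor itself, at 1.07 ± 0.09 (adjusted p = 1.66e-06).

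The VEGF ligands and receptors that share the neuropilins were lower in the atrium for 6 of 8 in sham rats and 4 of 8 in shunt rats, with none higher. All genes were called lower at 22.6% and 20.9%. Of the 8, Flt4 passed the filter only through its ventricular level. Kdr, the main endothelial VEGF receptor, read 8.61, 8.40 and 8.51 in the atrial and 9.24, 9.31 and 9.27 in the ventricular sham pools, without overlap. It was lower by -0.76 ± 0.08 in sham rats (adjusted p = 1.32e-05) and by -0.75 ± 0.08 in shunt rats (adjusted p = 1.67e-05). Kdr and Flt1 are also on the endothelial marker list above. The other lower partners of smallest p were Gpc1, a heparan sulfate proteoglycan that binds Slits, at -1.03 ± 0.11 (adjusted p = 2.02e-05), Rras, a GTPase switched off by plexins, at -0.44 ± 0.06 (adjusted p = 6.62e-05), and in shunt rats Anks1a, an adaptor of Eph receptors, at -0.66 ± 0.08 (adjusted p = 2.71e-05).

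The next question was what the shunt did to guidance molecules within each chamber. No member was called in either chamber by limma, where 1.3% of all probe sets were called in the atrium and 0.107% in the ventricle. At an unadjusted p under 0.05 there were 10 of the 36 genes in the atrium, beside 15.9% of all genes, and 6 in the ventricle, beside 14.6%. The sham and shunt pools did not overlap for 11 genes in the atrium (30.6%, beside 21.8%) and for 9 in the ventricle (25%, beside 21.4%). Shunt effects ranged from -0.78 to 0.58 in the atrium and from -0.25 to 0.41 in the ventricle, with medians of 0.01 and 0.06, beside -0.01 and 0.00 over all genes. The 95% interval reached past a log2 difference of 1 for a single gene in the atrium, Efnb3, and for none in the ventricle. The shunt comparisons use the same arrays as the chamber comparisons.

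The members of smallest p in the atrium were Sema5a and Efnb3. Sema5a read 5.59, 6.04 and 5.75 in the atrial sham pools and 5.18, 5.37 and 5.37 in the shunt pools, without overlap, a difference of -0.49 ± 0.11, 1.4-fold (limma, adjusted p = 0.0597). Efnb3 read 6.12, 6.84 and 6.52 in sham and 5.62, 5.72 and 5.80 in shunt pools, also without overlap, a difference of -0.78 ± 0.18, 1.71-fold (adjusted p = 0.0657). Both narrowly missed the threshold, and their call turned on the setting. Efnb3 was called with the filter at the 60th percentile (adjusted p = 0.0459), with array weights (0.0242), with only the brightest probe set of each gene (0.0482), with the probe sets averaged by gene (0.0443) and without atrial sham pool 1 (0.0348). Sema5a was called with array weights (adjusted p = 0.0245), a trended and robust prior (0.0462), a replicate block over all groups (0.025), only the brightest probe set of each gene (0.0437), probe sets averaged by gene (0.0399) and without atrial sham pool 1 (0.0407). Over the 12 fits without 1 array, adjusted p ranged from 0.0348 to 0.209 for Efnb3 and from 0.0407 to 0.182 for Sema5a.

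Unc5b, named here after its values were seen, had the largest positive atrial shunt effect, 0.58 ± 0.18 (adjusted p = 0.143), between sham pools at 6.23, 6.0 and 6.34 and shunt pools at 7.04, 6.95 and 6.32. Atrial shunt pool 3 alone lay within the sham range, and it was the array furthest from its group. Without it the effect was 0.81 ± 0.13 (adjusted p = 0.0112), and with array weights 0.69 ± 0.13 (adjusted p = 0.0142). The lowest and highest effect over the 12 fits without 1 array were 0.45 and 0.81. The other tested Unc5b probe set gave a smaller atrial shunt effect of 0.32, with a 95% interval from -0.06, and was not called. Beside these atrial effects, the summed level of the ventricular myocyte markers ran from 8.29 to 8.87 in the atrial sham pools and from 9.49 to 10.10 in the atrial shunt pools, and that of the mesothelial markers from 10.11 to 10.33 and from 9.69 to 10.21. The former sum leans on Myh7, with atrial means of 7.03 in sham and 8.66 in shunt, and Myl3, with 7.57 and 8.69. Of the 5 ventricular markers tested 4 had a positive atrial difference, and Irx4 fell from 3.39 to 3.07. Myh7 rose in the ventricle too, from 10.61 to 11.58. Of the 7 tested nerve and Schwann cell markers 2 rose in the atrium and were called (28.6%, beside 0.585% of all genes). They were Prph, an intermediate filament of peripheral neurons, by 0.90 ± 0.12 (adjusted p = 0.00546) and Cnp, a myelin enzyme, by 0.53 ± 0.11 (adjusted p = 0.0436). Prph rose in the ventricle too, from a mean of 4.29 to 4.93 without overlap, though none of the 7 was called there. The summed level of all 14 nerve and Schwann cell markers on the array ran from 9.34 to 9.49 in the atrial sham pools and from 9.38 to 9.69 in the atrial shunt pools. The part of these markers in the atrial shunt effects was not tested.

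In the ventricle Nrp2 and Sema6d had the smallest p. Nrp2 read 6.25, 6.22 and 5.96 in the ventricular sham pools and 6.61, 6.39 and 6.68 in the shunt pools, all shunt pools above all sham pools, a difference of 0.41 ± 0.12, 1.33-fold (adjusted p = 0.167). Its other probe set, below the filter, went the other way without overlap, from 4.37, 4.21 and 4.34 to 3.88, 4.03 and 3.81. Sema6d read 7.55, 7.56 and 7.45 in sham and 7.70, 7.86 and 7.75 in shunt pools, again without overlap, a difference of 0.25 ± 0.07 (adjusted p = 0.176). Neither was called under any alternative tried. Sema4d had the same sign and no overlap in both chambers, at -0.28 ± 0.08 in atrium (adjusted p = 0.127) and -0.25 ± 0.08 in ventricle (adjusted p = 0.204). It was named after its values were seen. Beside the ventricular effects, the 11 macrophage markers all had a positive difference, 7 of them without overlap (63.6%, beside 21.4% of all genes) and none called, 4 with an unadjusted p under 0.05. Their summed level ran from 10.85 to 10.90 in the sham and from 11.11 to 11.25 in the shunt pools, and their part in the ventricular effects was not tested.

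**Figure D4:**
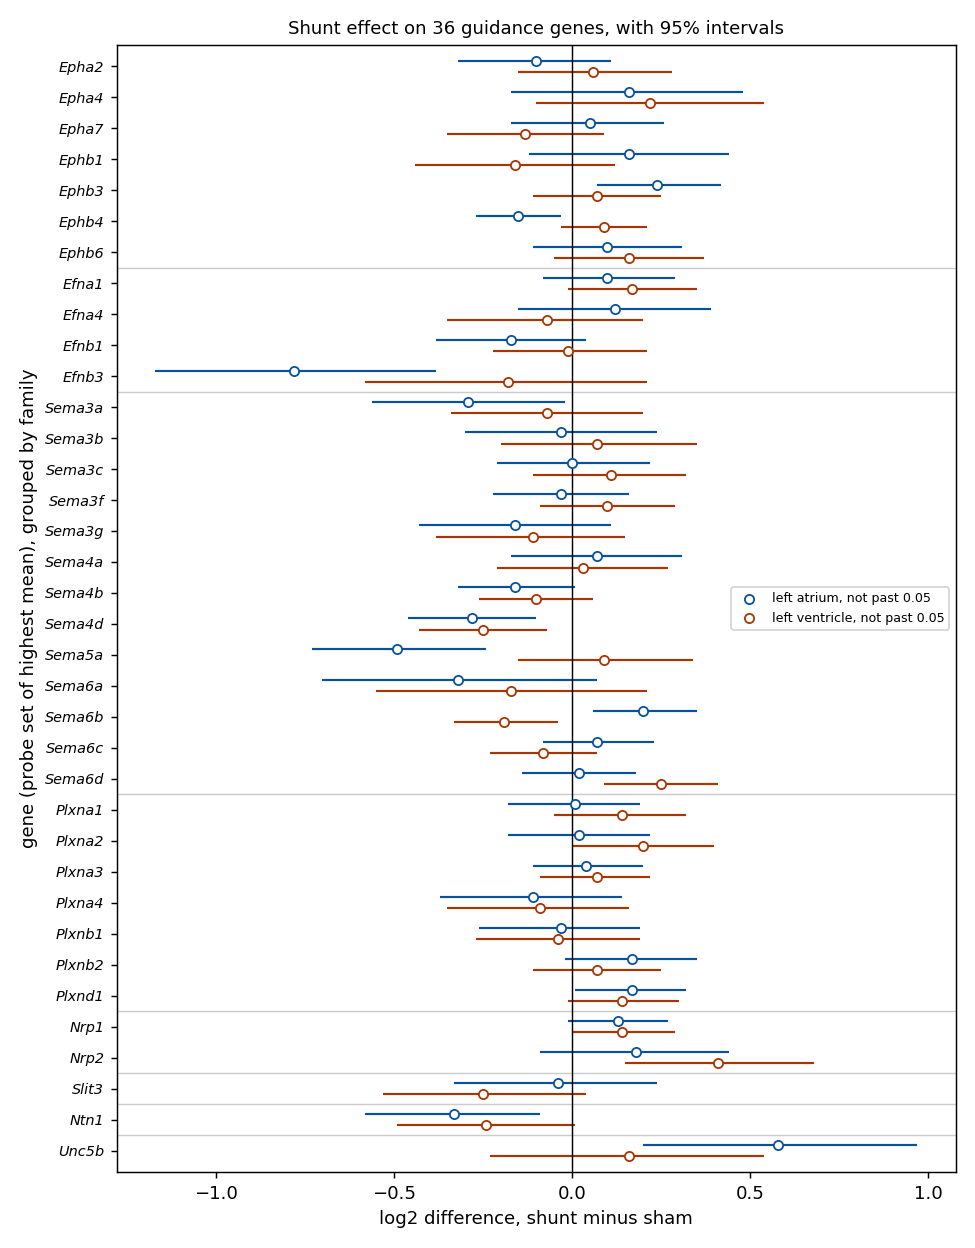
Log2 shunt effect (x axis, shunt minus sham) on the 36 tested guidance genes (y axis, grouped by family) in left atrium (blue) and left ventricle (brown). Points are limma estimates, lines 95% confidence intervals, and open points did not pass an adjusted p of 0.05. All points are open, and the widest departures from 0 are Efnb3 at -0.78 and Unc5b at 0.58, both in the atrium.

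The last comparison asked whether the shunt effect differed between the chambers. No member passed, and none of the 18625 probe sets did (0%). An unadjusted p under 0.05 was reached by 4 of the 36 genes, beside 6.79% of all genes. The smallest p belonged to Sema6b, whose shunt effect was 0.20 ± 0.07 in the atrium and -0.19 ± 0.07 in the ventricle, a difference of effects of 0.39 ± 0.09 (limma, adjusted p = 0.383). Sema5a followed at -0.58 ± 0.16 (adjusted p = 0.46). The smaller chamber difference of Sema5a, Sema6b and Unc5b in shunt rats is therefore not shown to differ from that in sham rats.

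Among the partners, Rgs3 and Rgmb changed in the atrium after the shunt. Rgs3, whose product binds B-class ephrins and regulates G protein signalling, read 7.08, 7.02 and 7.0 in sham and 7.50, 7.53 and 7.43 in shunt pools, and rose by 0.45 ± 0.06 (adjusted p = 0.00449). Its call was lost with only the groups compared (adjusted p = 0.063) and with its probe sets averaged (0.23, adjusted p = 0.0947). Rgmb fell from 8.47, 8.56 and 8.65 to 7.99, 8.01 and 8.24, a difference of -0.48 ± 0.09 (adjusted p = 0.0226). Its call was lost without atrial sham pool 2 or 3 or atrial shunt pool 1 or 2 (highest adjusted p = 0.109), and with only the groups compared (0.12). No partner was called by limma in the ventricle or for the difference of the shunt effects, where 12 and 5 of the 73 had an unadjusted p under 0.05, beside 14.6% and 6.79% of all genes.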

How the data were processed

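Expression was measured on 12 Affymetrix arrays. The deposited values are log2 values that the authors made with RMA, per the submitters' processing notes; the RMA version and which arrays were normalized together are not given in the sources used here. They ran from 2.05 to 14.29. Of 31099 probe sets, 57 controls were left out, 20826 had 1 symbol in the platform annotation, 436 several and 9780 none. Probe sets with a mean at or above the 40th percentile were fitted with limma 3.58.1 (lmFit and eBayes, R 4.3.3), with 1 mean per group, no block, 8 residual and 3.68 prior degrees of freedom, two-sided tests and Benjamini-Hochberg adjustment over 18625 probe sets. Intervals are 95% intervals of the fit, and SD is over the 3 pools of a group. The fit was tested on simulated data. The families that make up the members, and the lists, were chosen with earlier results of these data known; within the families the rule used symbols only. Called members are described, with the pair of smallest p where not called, and up to 3 called partners per direction. Alternatives changed the filter, normalization, array weights, prior, arrays fitted, block, minimum fold, probe sets per gene, and left out each array. Promoter windows came from RefSeq (GRCr8), which was otherwise used for names.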

Additional observations from a re-analysis of the deposited data

How the results depend on the processing

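The number of member probe sets called between the chambers stayed within 1.5 times its value (by gene, of the gene count) under all alternatives but a minimum fold of 1.5, which left 7 of 54 in sham rats (6 higher, 1 lower in the atrium, beside 5.97% of all probe sets) and 7 in shunt rats (5 higher, 2 lower, beside 5.52%). Among genes, Epha4, Slit3 and Efnb3 were called with it in both operations, Sema3a in sham rats and Nrp2 in shunt rats. Leaving out 1 array gave 29 to 35 called probe sets in sham rats and 29 to 31 in shunt rats, and 17 of 22 and 17 of 21 called genes stayed called in all 12 such fits. For shunt against sham in the atrium, where 0 members were called, the count was 1 with the filter at the 60th percentile, 3 with array weights, 1 with a trended and robust prior, 1 with a replicate block over all groups, 2 with only the brightest probe set of each gene, 2 with probe sets averaged by gene, and 0 to 2 without 1 array (2 without atrial sham pool 1, 1 without atrial shunt pool 3). The cause was not tested. In the ventricle and for the difference of effects the count was 0 throughout. Of 1608 values of named genes under an alternative, 1476 kept their side of the threshold, 102 lost the call, 30 gained it and 0 changed sign.

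Same-numbered pools did not deviate together in all pairs (r = 0.228, 0.26 and 0.072 between the chambers in sham rats, and -0.243, 0.444 and 0.445 in shunt rats), so the numbers were not taken to pair the samples. With the replicate block over all groups the counts were 32 and 31 between the chambers, 1 and 0 for the shunt in atrium and ventricle and 0 for the difference of effects. With the replicate block within an operation they were 34 and 32 between the chambers and 0 for the difference. The first block lost the Unc5b call in sham rats (adjusted p = 0.0567) and the Epha2 call in shunt rats (0.0513), and the second lost the Ephb1 call in sham rats (0.05) and the Epha2 call in shunt rats (0.06).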

Other observations

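Several members below the filter also differed between the chambers when all 31042 probe sets were fitted without a filter, which called 3 of the 40 untested member probe sets higher and 12 lower in the atrium in sham rats, beside 3.63% and 11% of all probe sets below the filter, and 2 higher and 6 lower in shunt rats, beside 2.65% and 6.33%. Sema3e, the direct ligand of plexin-D1, read 2.98, 3.44 and 3.15 in the atrial and 2.73, 2.80 and 2.72 in the ventricular sham pools. It was higher in the atrium by 0.44 ± 0.11 in sham rats (limma, adjusted p = 0.00692) and by 0.40 ± 0.11 in shunt rats (adjusted p = 0.0137), while its receptor gene Plxnd1 was lower there. Unc5c, a netrin receptor, was lower in the atrium on 1 of its 2 probe sets, by -0.42 ± 0.08 (adjusted p = 0.00115) and by -0.23 ± 0.08 (adjusted p = 0.0485). Sema3d, a secreted semaphorin of the epicardium and of vessels, was lower in sham rats by -0.47 ± 0.09 (adjusted p = 0.00127). Plxnc1, the receptor of Sema7A, was higher in sham rats on 1 of its 2 probe sets by 0.49 ± 0.10 (adjusted p = 0.00159). Efna5, a membrane-anchored ligand, was lower in sham rats on 1 of its 2 probe sets by -0.32 ± 0.09 (adjusted p = 0.0193). These values lie near the bottom of the scale, where 72.4% of all probe sets were lower in the atrium in sham rats and 70.5% in shunt rats.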
